A study of Mus musculus with 14 samples.

Results

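The 38 Hox genes described here lie in 4 clusters, Hoxa, Hoxb, Hoxc and Hoxd, and were taken by name from lists of chromatin regions that the authors called as more or less accessible between groups of mouse yolk sac cells. They are 38 of the 21900 protein-coding genes in the RefSeq gene table, with 10 in Hoxa, 10 in Hoxb, 9 in Hoxc and 9 in Hoxd. The rule uses their names and no measured value. Of the 38 genes, 36 had at least 1 line in a list, and Hoxa9 and Hoxd4 had none.

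Open chromatin was profiled by ATAC-seq, where a transposase inserts adapters into accessible DNA, in samples of 500 sorted erythro-myeloid progenitors. These yolk sac cells are the source of early red cells and myeloid cells, and came from C57BL/6 embryos at stage E10.5. All embryos were Ezh2 fl/fl, the controls included. The Ezh2 protein is the enzyme within Polycomb repressive complex 2 (PRC2). The Tie2 KO group (5 samples) also carried a Tie2-Cre transgene (Tg/+), whose driver is active in endothelium and in the blood cells that arise from it. The Vav KO group (3 samples) carried a Vav-Cre transgene (Tg/+), whose driver is active in blood cells. The Tie2 WT group (3 samples) and the Vav WT group (3 samples) had no transgene (+/+). Vav WT enters no list. Vav KO was compared with Tie2 WT, so Ezh2 genotype and transgene line cannot be told apart in that comparison. In Tie2 KO against Tie2 WT, Ezh2 deletion and presence of the Cre transgene cannot be told apart. Whether a sample holds cells of 1 embryo or of several is not given in the labels.

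Each line of a list pairs a region with a gene whose start the region covers, or lies upstream of by less than 5 kb, and gives the region's log2 fold change with its adjusted p-value. Both are the authors' own. The lists hold no value per sample, so depth and the spread between samples are unknown, and the adjusted p-value stands as the only error of a fold change. Ezh2 itself was in no list, which checks nothing about the deletion, since the lists cover only gene starts and the DNA just upstream. How complete the deletion was in either knockout group was not measured here. In the authors' deposited tables, a region at Tek, the gene that lends Tie2-Cre its driver, had 2.90 (log2 fold change) in Tie2 KO against Tie2 WT and 2.92 in Tie2 KO against Vav KO. A region at Vav1 in the same tables had 0.81 in Vav KO against Tie2 WT and -0.90 in Tie2 KO against Vav KO. Whether these values come from reads of the transgenes was not tested.

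Hox genes encode homeodomain transcription factors that give cells a position along the head-to-tail axis. Within a cluster, the genes at one end (low paralog numbers, called anterior here) are active early and near the head, and those at the other end (high numbers, posterior) later and nearer the tail. PRC2 methylates histone H3 at lysine 27, and the silent Hox clusters are among its best known targets. In blood, genes of the middle of the Hoxa and Hoxb clusters are known for their expression in stem and progenitor cells. Paralog groups 1 to 5 are called anterior, 6 to 8 central and 9 to 13 posterior below.

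Promoters that Polycomb complexes bind are known for their many CG dinucleotides, so these were counted. RefSeq promoters (assembly GRCm38.p6, 250 bases before to 50 after a gene start, read on the strand of the gene) were at hand for 22 of the 38 genes, 24 promoters in all. Their median was 14.5 CG dinucleotides in 300 bases, against 7 over all 32851 promoters of the table and 13 over the 21263 promoters of protein-coding genes. The range ran from 4 at Hoxa9, Hoxd4 and the promoter of Hoxd11 at its listed start to 45 at Hoxa13. Printed here, with each CG in capitals, are the promoters in the table with the largest fold change of a region over the start in Tie2 KO against Tie2 WT, for Hoxa, Hoxb and Hoxd. No Hoxc promoter is printed, since the only one at hand, of Hoxc4, lies 15459 bp from the listed start. The promoter results therefore say almost nothing about Hoxc. They say little about Hoxb, where only the promoters of Hoxb1, Hoxb4 and Hoxb8 were at hand. No promoter was at hand for Hoxa4 (1.30), Hoxb13 (1.96), Hoxb7 (1.29) and Hoxb9 (0.87). Their log2 fold changes over the start in the authors' deposited table exceed those of the Hoxa and Hoxb genes printed. The promoter of Hoxd10 is added because its start had the largest decrease over a Hox gene start in Vav KO. They lie at chr6:52164782-52165081 on the minus strand (Hoxa2), and on the plus strand at chr11:96365508-96365807 (Hoxb1), chr2:74711743-74712042 (Hoxd3) and chr2:74691641-74691940 (Hoxd10).
Hoxa2: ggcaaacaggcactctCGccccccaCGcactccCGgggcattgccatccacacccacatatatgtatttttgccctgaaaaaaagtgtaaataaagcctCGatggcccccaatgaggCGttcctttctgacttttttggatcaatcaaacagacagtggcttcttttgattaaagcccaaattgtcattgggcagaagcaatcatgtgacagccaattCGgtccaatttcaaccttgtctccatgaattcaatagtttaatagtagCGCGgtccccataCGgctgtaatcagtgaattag
Hoxb1: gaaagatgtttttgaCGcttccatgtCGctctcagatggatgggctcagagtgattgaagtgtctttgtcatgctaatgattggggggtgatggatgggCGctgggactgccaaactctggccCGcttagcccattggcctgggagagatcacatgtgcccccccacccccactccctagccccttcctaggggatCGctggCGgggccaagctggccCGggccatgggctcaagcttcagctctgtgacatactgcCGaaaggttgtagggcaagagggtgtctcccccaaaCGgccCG
Hoxd3: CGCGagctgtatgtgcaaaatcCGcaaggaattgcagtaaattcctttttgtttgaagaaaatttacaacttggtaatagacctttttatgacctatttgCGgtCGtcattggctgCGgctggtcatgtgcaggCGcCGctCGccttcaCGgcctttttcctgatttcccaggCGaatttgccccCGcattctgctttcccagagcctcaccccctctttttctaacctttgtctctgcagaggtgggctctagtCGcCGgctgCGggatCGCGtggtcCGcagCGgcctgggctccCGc
Hoxd10: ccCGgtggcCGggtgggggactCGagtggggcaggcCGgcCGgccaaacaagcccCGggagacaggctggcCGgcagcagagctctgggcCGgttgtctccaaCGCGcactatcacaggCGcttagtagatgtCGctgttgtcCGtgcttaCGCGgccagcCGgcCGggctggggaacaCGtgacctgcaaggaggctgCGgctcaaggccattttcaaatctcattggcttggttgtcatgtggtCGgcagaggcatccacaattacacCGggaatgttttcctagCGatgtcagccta

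The Hoxa2 promoter has 9 CG, Hoxb1 has 10, Hoxd3 has 20 and Hoxd10 has 22. The 6 promoters overlapped by a region more open in Tie2 KO than in Tie2 WT had a median of 16 CG, against 14.5 in the other 18. The other 18 include promoters away from the listed start of their gene, such as 1817 bp at Hoxa7. Of 5 motifs searched on both strands, TGATTNAT, a site bound by Hox proteins with Pbx, was in 2 of the 24 promoters (Hoxa2 and the second Hoxd11 promoter), or 8.33%, against 3.22% of all promoters. TTTATNG, the Cdx site, was in 2 (Hoxb8 and Hoxd4), or 8.33% against 10.9%. The homeodomain core TAATTA was in 2, both of Hoxd11, or 8.33% against 5.29%. GAGAG was in 16, or 66.7% against 62.0%, and TATAAA in 4, or 16.7% against 13.6%. TTTATNG and TATAAA can overlap in sequence. A match describes the letters of the promoter and is no evidence of binding.

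The clusters also hold microRNA genes, which are counted with the noncoding genes below. Those of the miR-10 and miR-196 families sit at matching positions in different clusters, while Mir615 lies in Hoxc only. Mature sequences (RefSeq) of both families and of Mir615 are shown, with the seed, bases 2 to 8, in capitals.
mmu-miR-10a-5p: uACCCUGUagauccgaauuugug
mmu-miR-10b-5p: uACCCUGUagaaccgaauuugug
mmu-miR-196a-5p: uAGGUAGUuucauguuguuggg
mmu-miR-196b-5p: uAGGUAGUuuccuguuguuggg
mmu-miR-615-3p: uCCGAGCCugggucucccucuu

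The miR-10 pair shares the seed ACCCUGU and differs at 1 base (U12A, counted from 1 at the 5′ end, miR-10a first). The miR-196 pair shares the seed AGGUAGU and also differs at 1 base (A12C, miR-196a first). Mir10a lies in Hoxb and Mir10b in Hoxd, while miR-196a comes from 1 gene in Hoxb and 1 in Hoxc, and miR-196b from Hoxa.

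Tie2 KO was set against Tie2 WT to see where chromatin differs between the group with the endothelial driver and its controls without a transgene. Accessibility was higher at Hox genes of all 4 clusters and lower at none. Of the 38 genes, 31 were paired with a higher region, against a background of 11.5% of all protein-coding genes, and 0 with a lower one, against 2.51%. A higher region covered the start of 18 of them, against 7.1% of all protein-coding genes. In the authors' deposited table, the fold changes (log2) ran from 0.78 to 2.08 over 44 distinct regions, with a median of 1.245, and the median over all 2959 higher regions was 1.02. The largest adjusted p-value among the 44 was 0.00413. The per-gene counts are not independent, since neighbouring genes can share a region, as Hoxa3 with Hoxa6 and Hoxc4 with Hoxc5 did.

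Hoxc was the most completely covered cluster. All 9 of its genes were paired with a higher region, 8 at the start, and 6 had at least 2 regions. Hoxa followed with 9 of 10 genes, 5 at the start, and Hoxb with 8 of 10, 4 at the start. Hoxd had 5 of 9, and Hoxd3 was the one gene there with a region over its start. Measured along the DNA between the outermost gene starts, higher regions, whichever gene they were paired with, covered 26.1% of the 97.8 kb of Hoxc, 21.1% of the 171 kb of Hoxb, 18.6% of the 96.0 kb of Hoxa and 15.3% of the 94.7 kb of Hoxd. The lists hold only DNA near gene starts, noncoding genes included. DNA within 5 kb upstream of a Hox gene start made up 40.8% of the span of Hoxc, 25.6% of Hoxb, 45.2% of Hoxa and 41.8% of Hoxd. What noncoding genes add to this reach was not computed, and the covered shares were not scaled to it. No test of a difference between clusters was possible without values per sample.

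**Figure D1:**
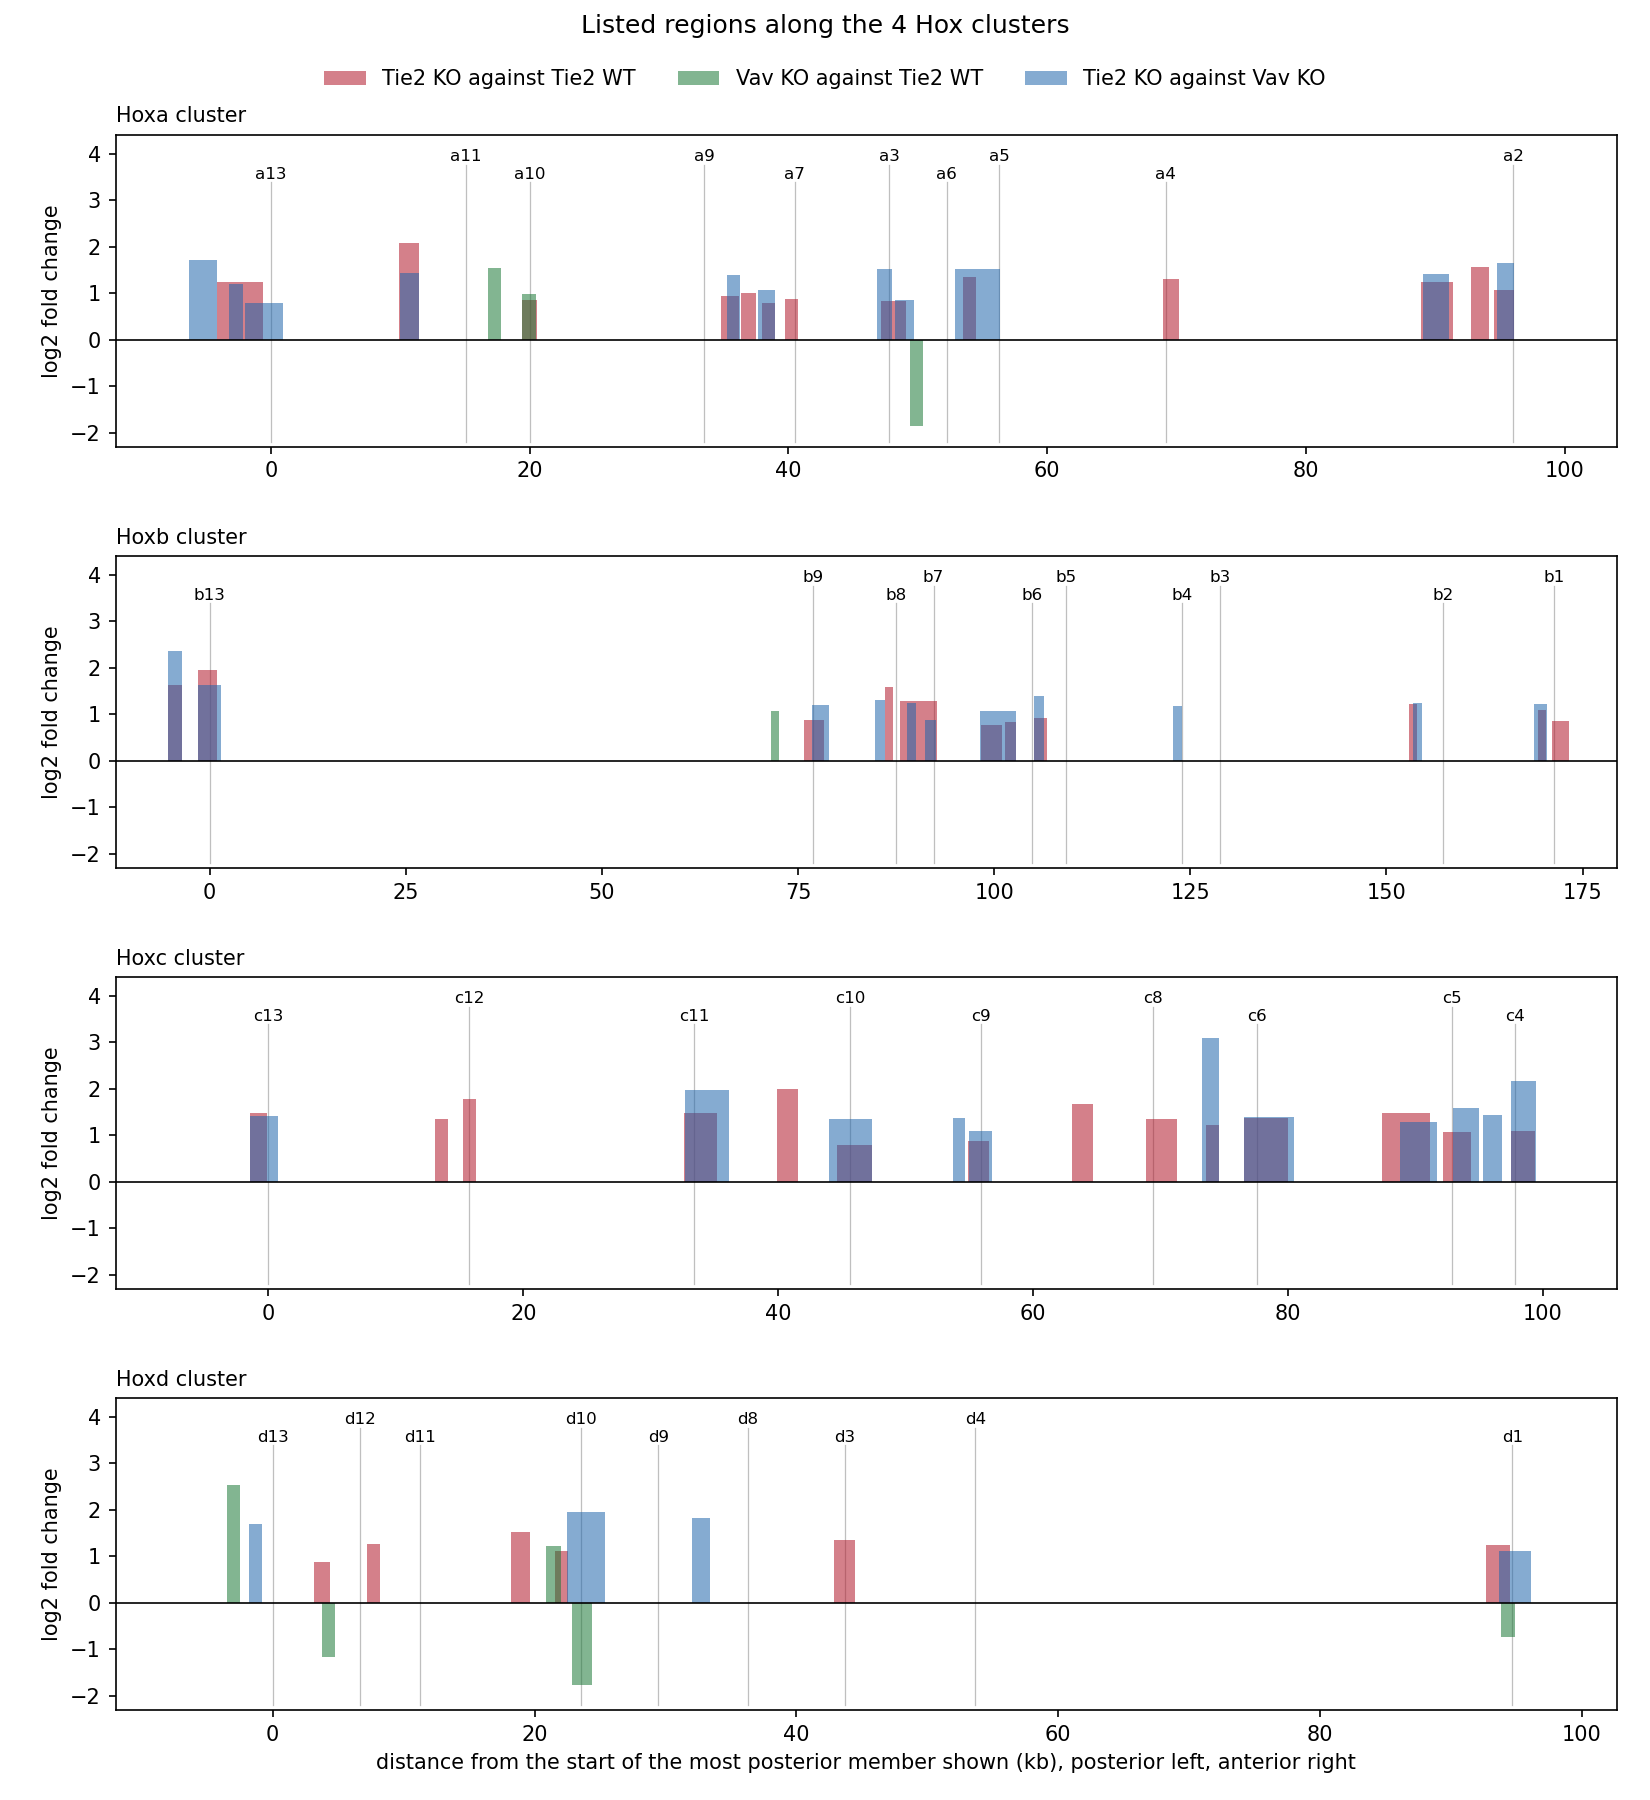
Listed regions along the 4 clusters. The horizontal axis is the distance in kb from the start of the most posterior gene shown, the height of each bar is the log2 fold change of a region in the authors' deposited tables, its width is the width of the region, and grey lines mark gene starts. Bars for Tie2 KO against Tie2 WT (red) and against Vav KO (blue) all point up, while bars for Vav KO against Tie2 WT (green) are few and point up at 5 regions and down at 4.

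In the Hoxa cluster the largest value lay far from a start. A region 3591 bp upstream of Hoxa11, a gene of limb and uterus patterning, at chr6:52249402-52251000, stood at 2.08 (log2) in the authors' deposited table (adjusted p = 6.15e-08). Hoxa2, which patterns the second branchial arch and hindbrain, had 1.06 over the start, 1.57 at 1870 bp upstream and 1.25 at 4670 bp upstream in the authors' deposited table. Its value was larger away from the start than over it. Hoxa7 had 4 regions, the most of any Hox gene here, but with lower values. The authors' deposited table gives 0.87 over its start, 0.80 at 1511 bp, 1.01 at 3011 bp and 0.94 at 4311 bp upstream. Hoxa4 had 1.30 over its start and Hoxa5 1.36 at 1814 bp upstream in the authors' deposited table. Hoxa13, the most posterior gene of the cluster, had 1.24 at 621 bp upstream there. Hoxa10, known for its expression in blood progenitors, had a region over its start with 0.85 in the authors' deposited table (adjusted p = 6.28e-08). Hoxa3 and Hoxa6 shared a region with 0.83 in that table, which covers the listed start of the long Hoxa3 transcript, between Hoxa6 and Hoxa7. Hoxa9, best known of these genes for its role in blood stem cells and leukaemia, was paired with no region. The nearest higher region upstream of it ended 5132 bp away, just past the 5 kb limit of the lists, with 0.83 in the authors' deposited table, and is paired with Mir196b. The nearest one on its other side, 1270 bp away, is the Hoxa7 region of 0.94.

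In Hoxb the largest value lay at the gene that stands apart from the others. Hoxb13, a posterior gene that lies 77.0 kb from its nearest Hox neighbour Hoxb9, had 1.96 over its start at chr11:96192902-96195300 (adjusted p = 5.43e-08) and 1.62 at 3460 bp upstream in the authors' deposited table. Hoxb8, which is active in myeloid progenitors, had 1.58 at 404 bp upstream in the authors' deposited table (adjusted p = 7.32e-06), and Hoxb7 had 1.29 in a region of 4799 bp over its start, the widest at a Hox gene. Hoxb1, a hindbrain gene at the anterior end, had 0.86 over the start and 1.10 at 1057 bp upstream in that table, and Hoxb2 had 1.22 at 3331 bp upstream. Lower values were listed in between. Hoxb6 had 0.83 and 0.78 in 2 upstream regions, Hoxb5 0.93 upstream and Hoxb9 0.87 over the start in the authors' deposited table. Hoxb3 and Hoxb4 were paired with no region. A region with 1.30 in the authors' deposited table ended 1967 bp upstream of Hoxb4, but it is paired there with Mir10a alone. Such a region counts for Hoxb4 only by position, not by the pairing used here.

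Hoxc, the cluster with a region at every gene, had its 2 largest values at posterior genes. Hoxc10 had 1.99 at 4095 bp upstream, at chr15:102961002-102962700 (adjusted p = 1.91e-06), and only 0.80 over its start in the authors' deposited table, the widest gap between start and upstream DNA among the 10 Hox genes with both kinds of region in this comparison. Hoxc12 had 1.78 over the start and 1.36 at 1652 bp upstream in the authors' deposited table, and Hoxc8, in the middle of the cluster, had 1.36 over the start and 1.67 at 4738 bp upstream. The 3 remaining genes with more than 1 region are neighbours, the central Hoxc6 and the anterior Hoxc5 and Hoxc4. In the authors' deposited table, Hoxc6 had 1.37 over the start and 1.22 upstream, Hoxc5 had 1.08 over the start and 1.47 upstream, and Hoxc4 had 1.10 over the start and 1.08 upstream. The Hoxc5 region of 1.08 is also paired with Hoxc4 and with Mir615, which lies inside Hoxc5. Hoxc11 had 1.48 over the start and Hoxc13 1.47 at 130 bp upstream, while Hoxc9 had 0.88 over the start in the authors' deposited table.

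Hoxd, whose posterior genes pattern limbs and digits, had the most genes without a region. Hoxd10 had 1.53 at 3890 bp upstream (adjusted p = 0.00168) and 1.11 at 990 bp upstream in the authors' deposited table (adjusted p = 0.00117), and no region over the start. Hoxd3, whose promoter is shown above, had 1.35 over the start, at chr2:74711202-74712800 (adjusted p = 5.92e-06 in the authors' deposited table). Hoxd11 had 1.27, Hoxd12 0.88 and Hoxd1 1.25 in upstream regions of the authors' deposited table. Hoxd4, Hoxd8, Hoxd9 and Hoxd13 had none. The nearest higher region upstream of Hoxd9 lay 6863 bp away, and that upstream of Hoxd4 lay 5778 bp away.

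Position along the cluster showed no clear order in the count of genes. A higher region was paired with 11 of 14 anterior genes, 7 of 8 central genes and 13 of 16 posterior genes. The largest value per gene in the authors' deposited table had a median of 1.25 over the listed anterior genes, 1.29 over central and 1.47 over posterior genes, and its maximum was 1.57, 1.67 and 2.08 in the same order. The 4 largest values were at genes of group 10 and beyond, namely Hoxa11, Hoxc10, Hoxb13 and Hoxc12. Posterior genes also held low values, such as Hoxa10, Hoxb9, Hoxc9 and Hoxd12, so the zones overlap over most of their range. Across the 31 listed genes, Spearman's rho between paralog group and largest value was 0.298 and Pearson's r was 0.317. Within clusters rho was 0.0251 in Hoxa (9 genes), 0.357 in Hoxb (8), 0.477 in Hoxc (9) and -0.30 in Hoxd (5). The points are genes that share the same samples and at times the same region, so these are descriptions with no p. Group 9 stood low, with values of 0.87 and 0.88 at Hoxb9 and Hoxc9 in the authors' deposited table and none at Hoxa9 and Hoxd9.

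**Figure D2:**
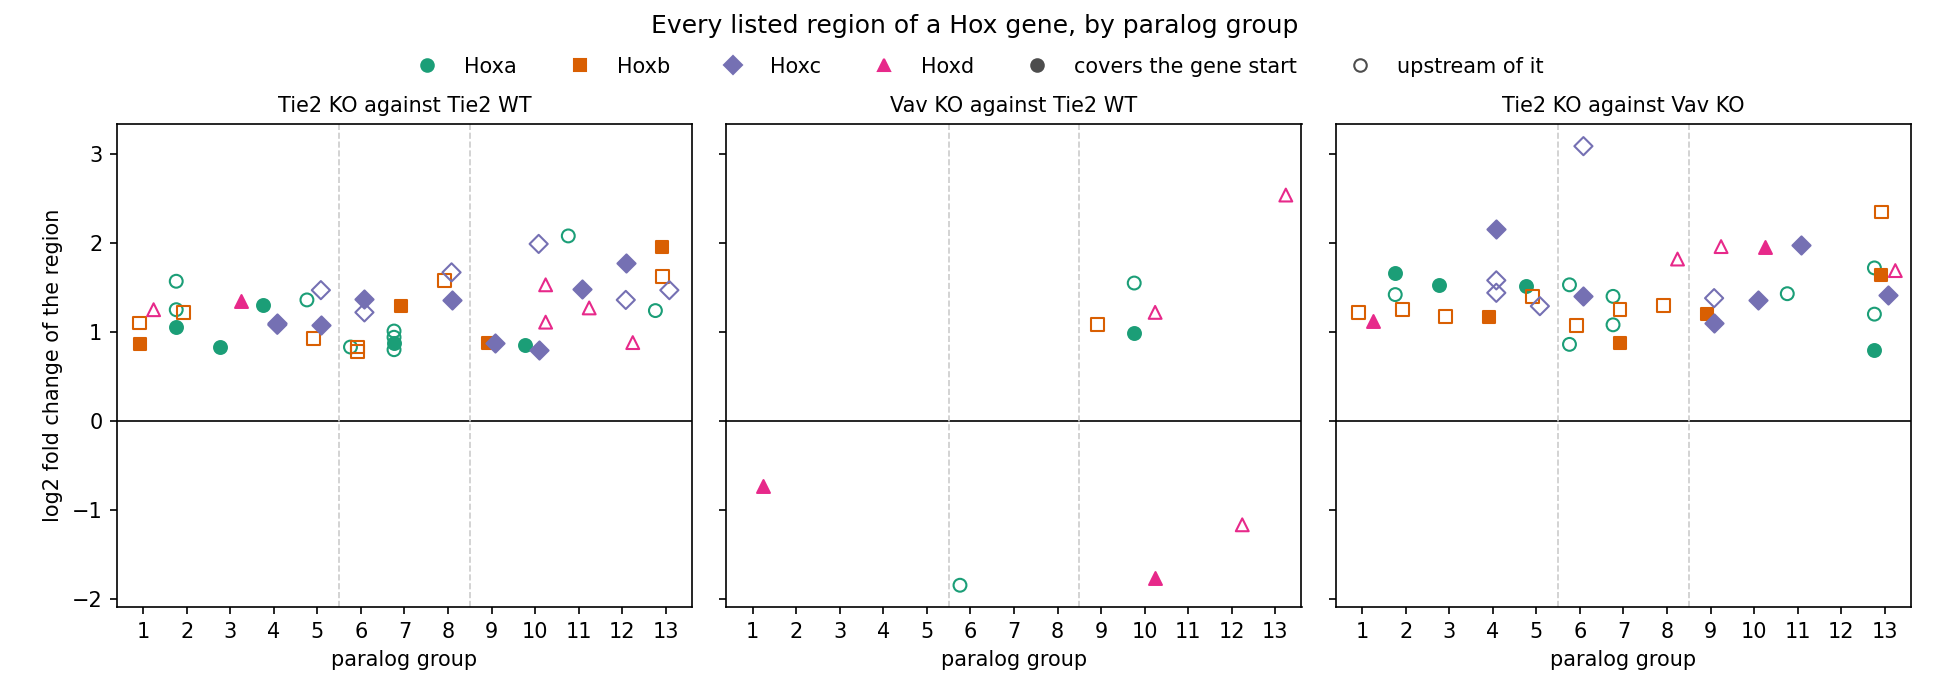
Each listed region of a Hox gene, by paralog group (horizontal) and log2 fold change in the authors' deposited tables (vertical), in 3 panels by comparison. Shape and colour give the cluster, filled symbols cover the gene start, open symbols lie upstream, and dashed lines divide anterior, central and posterior groups. In Tie2 KO against Tie2 WT the highest values (1.78 to 2.08) lie at groups 10 to 13, which also hold values of 0.80 to 0.88.

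Start and upstream regions differed in size at single genes, without a common rule. Among the 10 Hox genes with both kinds in Tie2 KO against Tie2 WT, the largest upstream fold change exceeded that over the start in 6. The median of the difference (largest upstream minus start) was 0.19. The same held for 130 of the 188 other protein-coding genes with both kinds, or 69.1% against 60% of the Hox genes. Their median difference was 0.265. Taking the largest value favours the upstream side at genes with several upstream regions. Several regions at 1 gene were common here. At least 2 higher regions were paired with 12 of the 31, or 38.7%, against 10.2% over the 2529 protein-coding genes with a higher region. Of the 44 regions, 18 covered a Hox gene start, or 40.9%. Over all higher regions, 55.6% covered the start of any paired gene, noncoding genes included, so these 2 shares are not counted alike. The median width was 1599 bp both at Hox genes and over all higher regions. These shares were set side by side and not tested.

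Vav KO, the group with the blood driver, differed from Tie2 WT at few regions near Hox genes, in both directions. A higher region was paired with 4 of 38 genes, against 5.29% of all protein-coding genes, and a lower one with 4, against 2.59%. Over the start, 1 gene had a higher region (background 0.881%) and 2 had a lower one (background 0.411%). None of the 9 Hoxc genes was paired with a region, and Hoxd had 4 of the 7 genes involved. All 4 genes with a higher region were posterior. Counts this small were not read further.

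Hoxa10 had 2 higher regions in Vav KO, 0.99 over the start (adjusted p = 1.13e-05) and 1.55 at 2247 bp upstream (adjusted p = 0.000616) in the authors' deposited table. The first of them lies wholly within the region of 0.85 at Hoxa10 in Tie2 KO against Tie2 WT, with an overlap of 1099 bp. Both comparisons use the same Tie2 WT samples. Hoxb9 had 1.08 at 4429 bp upstream in the authors' deposited table (adjusted p = 0.00115). That region lay 3201 bp from the region of 0.87 paired with Hoxb9 in Tie2 KO against Tie2 WT. It overlaps, however, a higher region of 1.32 in Tie2 KO against Tie2 WT that is paired with Mir196a-1. Hoxd13, the most posterior Hoxd gene, had the largest value of any Hox gene in Vav KO against Tie2 WT. This value was 2.54 at 2509 bp upstream, at chr2:74664802-74665800 (adjusted p = 8.53e-06 in the authors' deposited table).

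Hoxd10 was paired with regions of both directions. Its start, with the promoter printed above, lay in a lower region of -1.77 at chr2:74691202-74692700 (adjusted p = 2.81e-06), and a higher region of 1.22 lay 1590 bp upstream at chr2:74689202-74690300 (adjusted p = 0.000919), both in the authors' deposited table. Hoxd1 had -0.73 over its start in the authors' deposited table (adjusted p = 0.00045), in a region shared with the noncoding gene Haglr. Hoxd12 had -1.17 at 1912 bp upstream (adjusted p = 0.000352) and Hoxa6 -1.85 at 1877 bp upstream (adjusted p = 0.000293) in the authors' deposited table. The values at these genes in Tie2 KO against Tie2 WT, given above, were positive. The Hoxd12 regions of -1.17 and 0.88 overlap by 599 bp and the Hoxd1 regions of -0.73 and 1.25 by 699 bp, while the Hoxa6 regions of -1.85 and 0.83 lie 301 bp apart.

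The comparison of Tie2 KO with Vav KO sets the 2 knockout groups directly against each other, and is the authors' own call of the difference between them. It shares its samples with both comparisons above, so its values are not independent of theirs. Accessibility was higher in Tie2 KO at 29 of the 38 genes, against a background of 11.1%, and lower at 0, against 6.35%. A higher region covered the start of 16, against 5.42%. Fold changes (log2) in the authors' deposited table ran from 0.80 to 3.09 over 37 distinct regions, with a median of 1.40 against 1.16 over all 2873 higher regions, and the largest adjusted p-value among them was 0.0176. Hoxb had a region at all 10 genes, Hoxa at 7 of 10, Hoxc at 7 of 9 and Hoxd at 5 of 9.

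**Figure D3:**
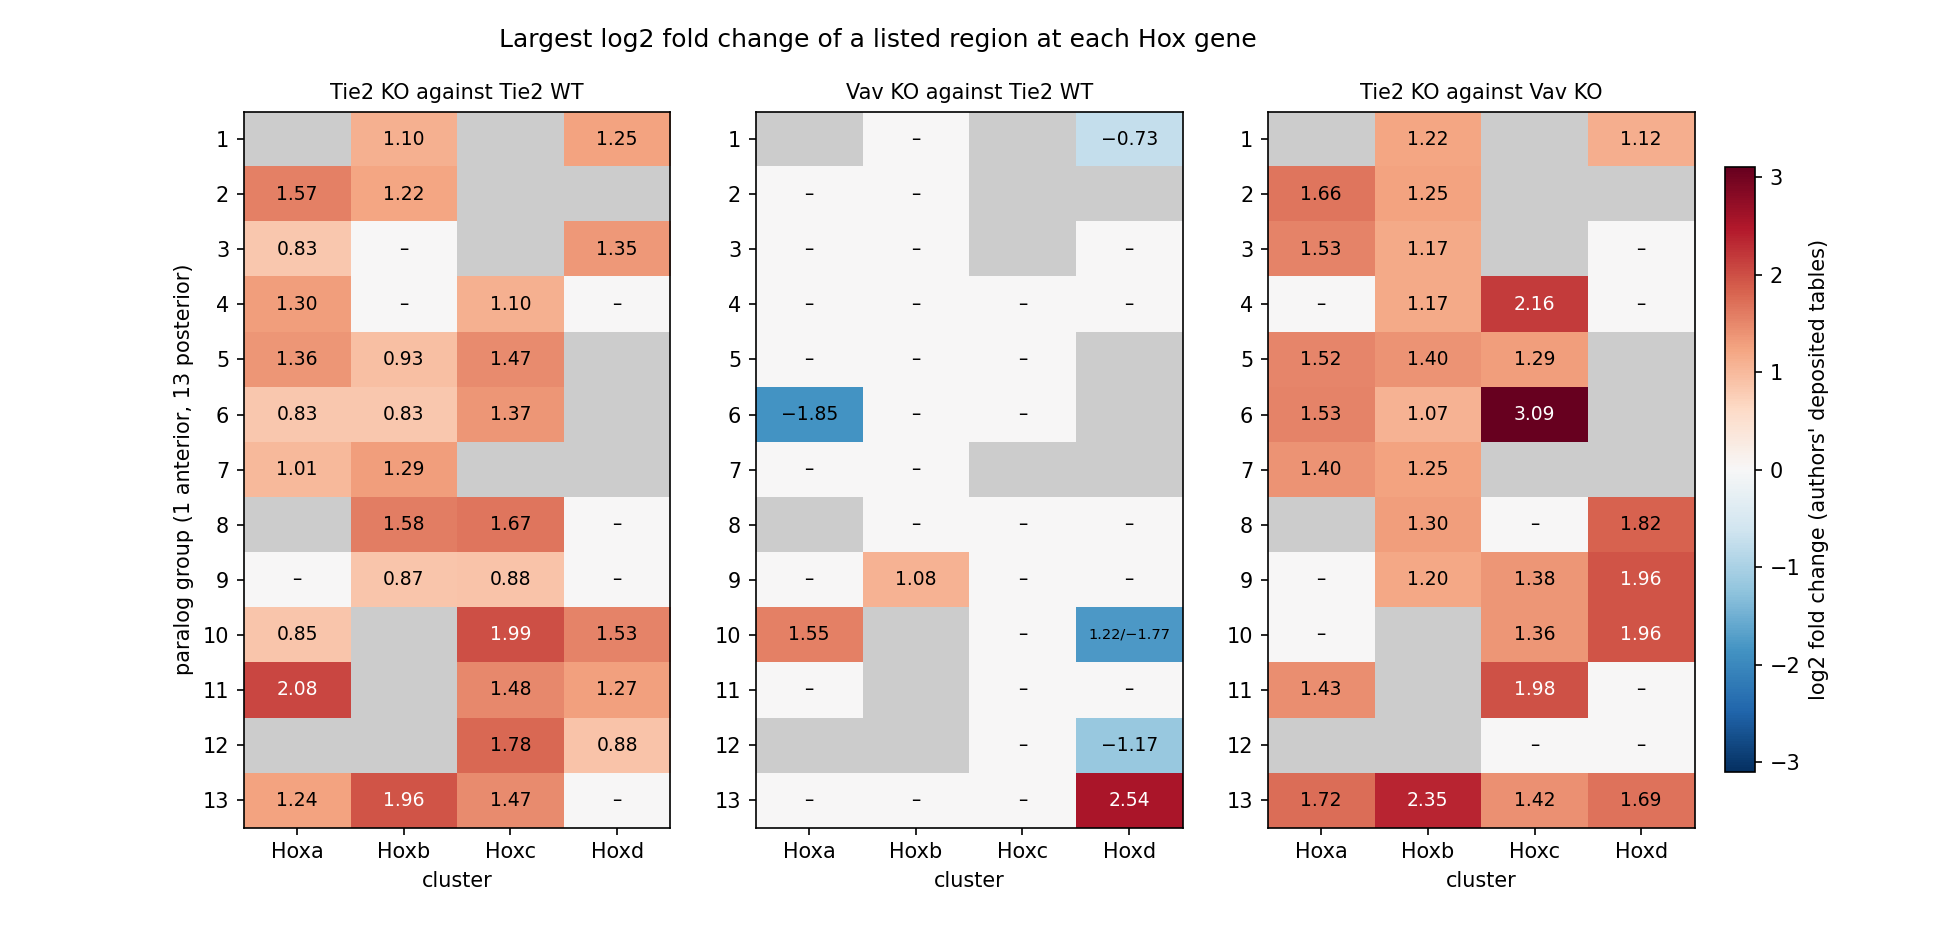
Largest log2 fold change of a listed region at each Hox gene, by paralog group (rows) and cluster (columns), in 3 panels by comparison. Red is higher and blue lower in the first group, a dash marks a gene paired with no region, grey marks positions without a gene described here, and Hoxd10 shows both its values. Tie2 KO is filled in red in both of its comparisons, with 31 and 29 genes, and the middle panel holds values at 7 genes.

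The largest value belonged to Hoxc6, with 3.09 at 3013 bp upstream, at chr15:102994402-102995700 (adjusted p = 4.64e-05), and 1.40 over the start in the authors' deposited table. Hoxc4 had 2.16 over the start, 1.44 at 1035 bp upstream and 1.58 at 2835 bp upstream in the authors' deposited table. Hoxc9 had 1.10 over the start and 1.38 upstream in the authors' deposited table. Of the other Hoxc genes, Hoxc11 had a region of 1.98 that spans the whole gene as listed, and Hoxc13, Hoxc10 and Hoxc5 had 1.42, 1.36 and 1.29 in that table. Hoxc8 and Hoxc12 were paired with no region.

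At Hoxb13 the values were 2.35 at 3460 bp upstream (adjusted p = 2.19e-06) and 1.64 over the start in the authors' deposited table. Hoxb7 had 0.87 over the start and 1.25 upstream there, and the other Hoxb genes had 1 region each, from 1.07 at Hoxb6 to 1.40 at Hoxb5. Hoxb3 and Hoxb4, which no region was paired with in Tie2 KO against Tie2 WT, shared a region of 1.17 over the Hoxb4 start (adjusted p = 0.000433 in the authors' deposited table).

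In Hoxa, Hoxa13 had 0.80 over the start, 1.20 at 2121 bp upstream and 1.72 at 4121 bp upstream in the authors' deposited table, so its value grew away from the start. Hoxa2 had 1.66 over the start and 1.42 upstream, Hoxa7 had 1.08 and 1.40 in 2 upstream regions, and Hoxa6 had 0.86 and 1.53 in 2 upstream regions of that table. The Hoxa6 region of 1.53 is the one that covers the Hoxa3 start. Hoxa5 had 1.52 over the start and Hoxa11 had 1.43 at 3591 bp upstream in the authors' deposited table, the Hoxa11 region starting at the same base as in Tie2 KO against Tie2 WT. Hoxa4, Hoxa9 and Hoxa10 were paired with no region.

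In Hoxd, a single region of 1.96 at chr2:74690802-74693700 covered the Hoxd10 start and was paired with Hoxd9 as well (adjusted p = 2.56e-06 in the authors' deposited table). It contains all 1499 bp of the Hoxd10 region that was lower in Vav KO than in Tie2 WT. Hoxd8 had 1.82 and Hoxd13 1.69 in upstream regions of the authors' deposited table, and Hoxd1 had 1.12 over the start. Hoxd13 was therefore paired with a region higher in Vav KO than in Tie2 WT and with another, 701 bp away, that was higher in Tie2 KO than in Vav KO. Hoxd3, Hoxd4, Hoxd11 and Hoxd12 had none.

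By position, 11 of 14 anterior, 7 of 8 central and 11 of 16 posterior genes were paired with a higher region in Tie2 KO against Vav KO. The median of the largest value in the authors' deposited table was 1.29, 1.40 and 1.69 in that order. Spearman's rho with paralog group was 0.437 over the 29 genes, and Pearson's r was 0.299. Within clusters rho was -0.144 in Hoxa (7 genes), 0.360 in Hoxb (10), -0.107 in Hoxc (7) and 0.359 in Hoxd (5). The order over all genes was thus not seen in every cluster. Group 13 had a region at all 4 of its genes and group 12 at neither of its 2.

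Noncoding genes inside the clusters were counted with the same rule. In Tie2 KO, 14 of 29 were paired with a region that was more open than in Tie2 WT and 13 with one more open than in Vav KO, and 0 with a lower one in either. Over all RefSeq genes of the same types (lncRNA, miRNA and pseudogenes), the higher shares were 1.22% and 1.32%. How many of those genes the authors' annotation holds was not tested, so these shares may be too low. In Vav KO against Tie2 WT, 2 were higher (Gm11538 and Hoxa11os) and 3 lower (Gm14424, Haglr and Mir196b), where those shares were 0.703% higher and 0.351% lower. Of the microRNA genes whose sequences are shown, Mir196a-1 had 1.32 over the start and Mir10a 1.30, Mir615 1.08, Mir196b 0.83 and Mir196a-2 0.80 in Tie2 KO against Tie2 WT, in the authors' deposited table. Mir10b was listed only in Tie2 KO against Vav KO, with 1.93 in that table. Several of these regions are those of the Hox genes beside them. Between Hoxb9 and Hoxb13, Gm53 had 1.69 over the start, and Gm11538 had 1.35 over the start and 1.85 upstream in Tie2 KO against Tie2 WT in the authors' deposited table. Outside the clusters, the 3 nearest protein-coding genes on each side of a cluster were listed as higher in 5 of 24 cases in Tie2 KO against Tie2 WT and 4 in Tie2 KO against Vav KO, where 2 were lower, and in 0 in Vav KO against Tie2 WT. The 5 and 4 are 20.8% and 16.7%, beside 11.5% and 11.1% of all protein-coding genes. The share of those genes near a lower region in Tie2 KO against Vav KO was 6.35%. Evx1, a homeobox gene next to Hoxa13, was among the higher ones in both Tie2 KO comparisons, with 1.03 and a largest value of 1.27 in the authors' deposited tables. These counts and those below were not tested against each other.

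Relatives of the Hox genes, homeobox genes outside or at the end of the clusters, were counted next. Of all protein-coding genes, 11.5% were near a higher region in Tie2 KO against Tie2 WT. That share was 5.29% in Vav KO against Tie2 WT and 11.1% in Tie2 KO against Vav KO. In Tie2 KO against Tie2 WT, 11 of 13 were paired with a higher region and 0 with a lower one. Gsx2, a forebrain gene, had 2.25, Mnx1, a motor neuron and pancreas gene, 1.85, and Pdx1, a pancreas gene, 1.45 in the authors' deposited table. In Vav KO against Tie2 WT none of the 13 was listed, and in Tie2 KO against Vav KO 7 were higher. Upstream regulators of the Hox genes were listed in 7 of 13 cases as more open in Tie2 KO than in Tie2 WT. They include the Cdx factors that activate Hox genes in the posterior embryo, Cdx1 with 0.79, Cdx2 with 0.75 and Cdx4 with 1.28 in the authors' deposited table. Cyp26a1, which degrades retinoic acid, had 1.01 and 1.50 there. The Cdx genes also count among the relatives. Rarg, a retinoic acid receptor, was the one upstream regulator listed in Vav KO against Tie2 WT, with 1.49, and the one lower in Tie2 KO than in Vav KO, with -1.63, in the authors' deposited tables.

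Genes for proteins that bind DNA together with Hox proteins (Pbx, Meis and Pknox) form the next list. In Tie2 KO against Tie2 WT, 2 of 9 were higher, Meis2 with 0.78 and Pknox2 with 0.79 in the authors' deposited table. The 2 are 22.2% of the list, beside 11.5% of all protein-coding genes, and counts this small are not read further. In Vav KO against Tie2 WT, Meis2 had 0.79 and Meis1, a partner of Hoxa9 in blood progenitors, had -1.06 in the authors' deposited table. In Tie2 KO against Vav KO, Meis3 had 0.59 and Pknox2 0.61 there. Of 34 genes for Polycomb and Trithorax proteins, 4 were higher and 1 lower in Tie2 KO against Tie2 WT, 3 higher and 2 lower in Vav KO against Tie2 WT, and 9 higher in Tie2 KO against Vav KO. The 4 genes are 11.8% of the list, near the 11.5% of all protein-coding genes, so nothing is read from that count. The shares in the other comparisons were 8.82% beside 5.29% in Vav KO against Tie2 WT and 26.5% beside 11.1% in Tie2 KO against Vav KO. As examples, Cbx2, a subunit of Polycomb repressive complex 1, had 1.86 and 1.56 in the 2 Tie2 KO comparisons in the authors' deposited tables. Kdm6a, an enzyme that removes methyl groups from lysine 27, had -0.79 over its start in Tie2 KO against Tie2 WT in the authors' deposited table. Its gene lies on the X chromosome, and the sex of the embryos was not considered here.

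Markers of other cells were counted in the same comparisons. Of all protein-coding genes, 11.5% were higher and 2.51% lower in Tie2 KO against Tie2 WT. The shares were 5.29% and 2.59% in Vav KO against Tie2 WT, and 11.1% and 6.35% in Tie2 KO against Vav KO. The lists are short, so counts of a few genes are not read against these shares. Of 9 markers of mesoderm and mesothelium, 7 were near a higher region in Tie2 KO against Tie2 WT and 7 in Tie2 KO against Vav KO, with 1 higher and 2 lower in Vav KO against Tie2 WT. The largest values were at Twist2, 2.15 and 2.93 in the authors' deposited tables for the Tie2 KO comparisons. Of 9 visceral endoderm markers, 3, 0 and 4 were higher in Tie2 KO against Tie2 WT, Vav KO against Tie2 WT and Tie2 KO against Vav KO, with 1 lower (Foxa2) in the second. For the 8 endothelial markers the higher counts were 3, 0 and 3, with Pecam1 lower in the first. Tek, the gene of the Tie2-Cre driver, is among them, and without it the counts were 2, 0 and 2 of 7. Of 10 markers of the sorted progenitors, 0 were listed in Tie2 KO against Tie2 WT, Csf1r was higher and Cd93 lower in Vav KO against Tie2 WT, and Csf1r was lower in Tie2 KO against Vav KO. Epor was the one of 5 erythroid markers listed, higher in Vav KO than in Tie2 WT and lower in Tie2 KO than in Vav KO. The lists give differences and no level, so the identity of the sorted cells could not be checked. Many of these mesoderm and endoderm genes encode developmental regulators, and a different mix of cells and different chromatin in the same cells cannot be told apart here. The part of the markers in the Hox values was not tested.

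**Figure D4:**
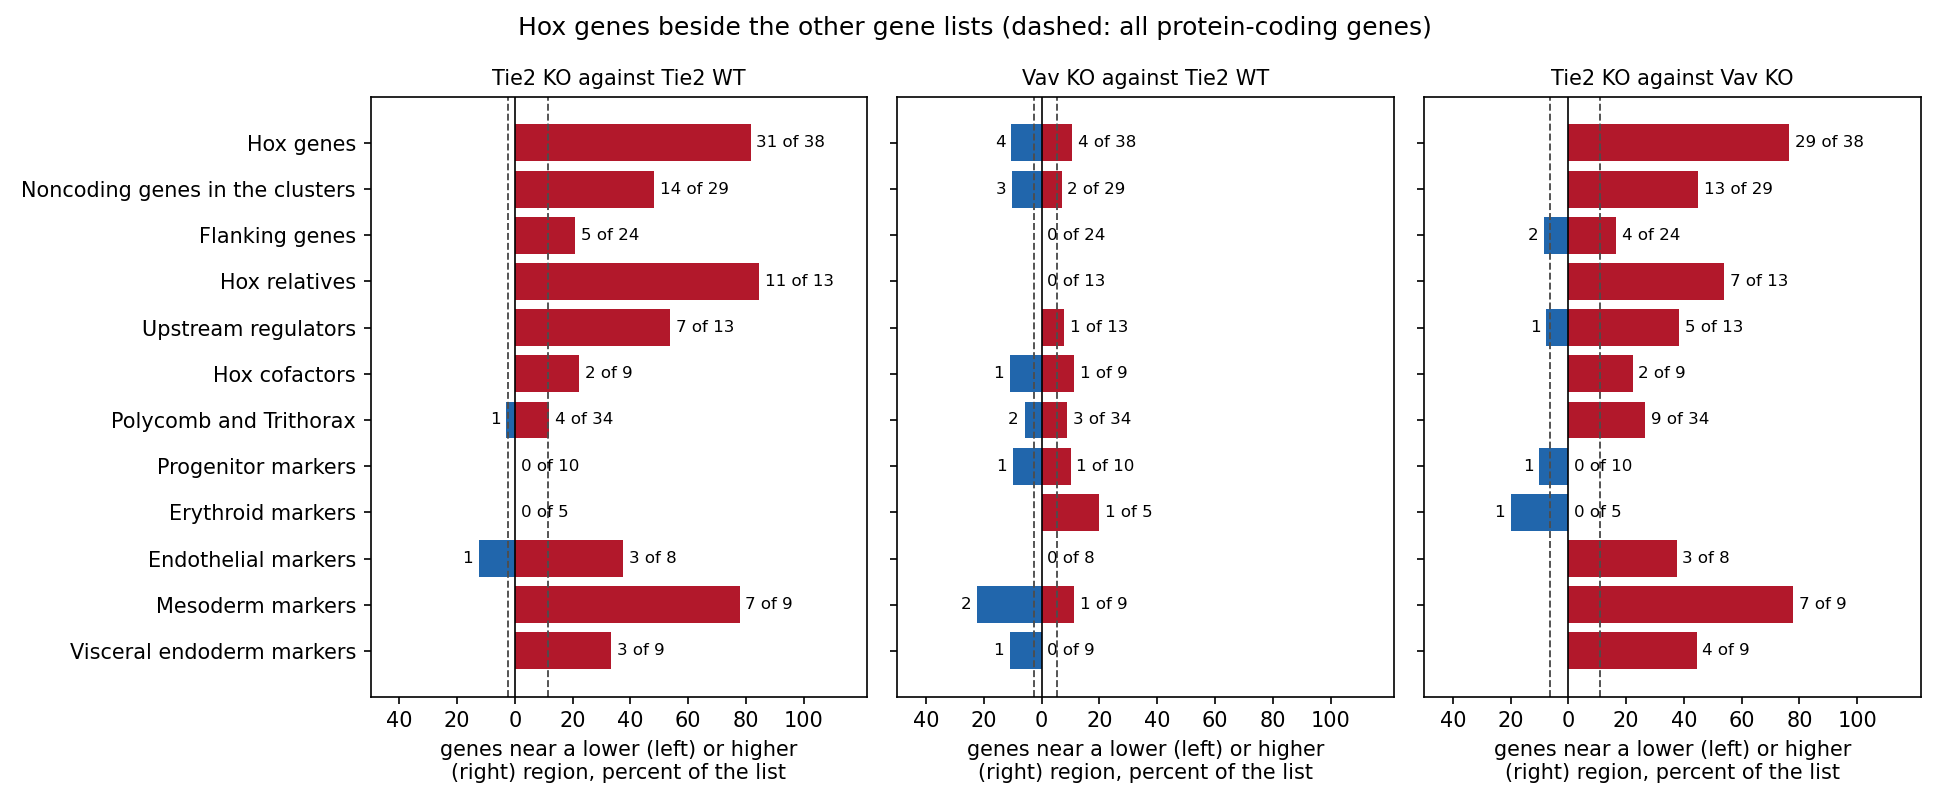
Share of each gene list paired with a higher region (red, right of 0) or a lower region (blue, left of 0), in percent of the list, in 3 panels by comparison. Numbers beside the bars are genes, and dashed lines give the share of all protein-coding genes in each direction. In both Tie2 KO comparisons the bars of the Hox genes (31 and 29 of 38) and the mesoderm markers (7 of 9) reach far past the dashed line. So do those of the Hox relatives (11 and 7 of 13), the upstream regulators (7 and 5 of 13) and the noncoding genes (14 and 13 of 29). The dashed line is not the share of all noncoding genes. In Vav KO against Tie2 WT the Hox genes have 4 on each side.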

How the data were processed

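ATAC-seq was made from 14 samples in 4 groups of erythro-myeloid progenitors. Per the submitters' processing notes, the build was mm10, and the tools, named without a role, were HOMER 4.10, MACS2 2.1.2, Picard, SAMtools 1.3.1, Bowtie2 and FastQC. Not given in the sources used here are the test, the scaling of libraries, any Tn5 shift and the treatment of duplicates. The authors called regions in 3 comparisons, each with a list of higher and a list of lower regions, and the shortened group names that label the 6 lists were taken to mean Vav KO, Tie2 KO and Tie2 WT.

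The authors' log2 fold change of a region comes with the authors' adjusted p-value, per the file headers. Region width and distance to the paired gene start, in bp, are deposited as well. No value per sample is in the lists, so depth is unknown, replicates could not be compared, no test was run and no interval was computed. The lists hold 10679 lines and 9954 distinct regions, of which 95 lines and 90 regions belong to the Hox genes, and 10669 lines matched an identifier of the RefSeq gene table (GRCm38.p6). A region covers a gene start where the lists say that it overlaps the start or contains the gene. Tested on the files, the largest distance to a start was 4999 bp. Starts are those of the lists, within 50 bp of the RefSeq start for 27 genes and further off for 9 (Hoxa7, Hoxb3, Hoxb6, Hoxb7, Hoxb8, Hoxc4, Hoxc6, Hoxd10 and Hoxd13). The shift reached 16025 bp at Hoxb3, 7618 bp at Hoxd10, 6357 bp at Hoxb6 and 2504 bp at Hoxb8. At such genes, whether a region covers the start or lies upstream depends on the start chosen.

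The genes and lists were chosen with earlier results of these data known. Values of every region are given for Hox genes with 2 or more regions in a comparison, with the largest change in a cluster, or near a lower region, and others as examples. The planned description of proteins was not run. Alternatives were an absolute log2 fold change of at least 1, an adjusted p of at most 0.01, regions over the start alone or within 1 kb of it, and each region counted for its nearest gene. Added after seeing the data were RefSeq gene starts and any region within 5 kb on either side. Counting was tested on simulated lists. Python 3.11.15, pandas 2.3.3, numpy 2.4.6 and matplotlib 3.10.9 were used. 1 further Hox gene is not reported here.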

Additional observations from a re-analysis of the deposited data

Results flagged for a closer look

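At 3 genes a region was lower in Vav KO and a region was higher in Tie2 KO against the same Tie2 WT samples, and the authors' direct comparison of the knockouts listed a difference. Hoxd10 had -1.77 over its start and 1.22 upstream in Vav KO against Tie2 WT, 1.53 and 1.11 upstream in Tie2 KO against Tie2 WT, and 1.96 over its start in Tie2 KO against Vav KO, in the authors' deposited tables. The upstream regions of 1.22 and 1.11 overlap by 399 bp, so on that DNA both knockouts were higher than Tie2 WT. Hoxd1 had -0.73, 1.25 and 1.12 in the same order in those tables. For Hoxa6 the values in the authors' deposited tables were -1.85, 0.83 and 0.86, the last in a region that overlaps the Vav KO region by 299 bp. The Hoxd10 and Hoxa6 regions lower in Vav KO lie 301 bp from the nearest region higher in Tie2 KO than Tie2 WT, and do not overlap it, while at Hoxd1 the regions of opposite sign overlap by 699 bp.

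The direct comparison also listed 29 of the 38 Hox genes as higher in Tie2 KO than in Vav KO, against 11.1% of all protein-coding genes. Vav KO and Tie2 KO differ in the Cre driver and in the mouse line, and these cannot be told apart.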

How the results depend on the processing

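Alternatives were run for the counts over all 38 genes and, in the Tie2 KO comparisons, for the cluster counts and medians, and not for zones, paralog groups or the other gene lists. The 0 Hox genes near a lower region in both Tie2 KO comparisons could rise only under the 2 alternatives added after seeing the data, and stayed 0 under both. Counting only regions over the gene start gave 18 genes higher in Tie2 KO against Tie2 WT, 16 in Tie2 KO against Vav KO, and 1 higher and 2 lower in Vav KO against Tie2 WT. With regions that end within 1 kb of the start included, the last 3 counts were 18, 1 and 2. Of the 28 alternative values of counts above 0 over all 38 genes, 21 stayed within 1.5 times the reported one. The even split of 4 higher and 4 lower in Vav KO against Tie2 WT became 4 and 3 with an absolute log2 fold change of at least 1 and with each region counted for its nearest gene. With RefSeq gene starts, 30, 3 and 27 genes were near a higher region in Tie2 KO against Tie2 WT, Vav KO against Tie2 WT and Tie2 KO against Vav KO, and with regions on either side of the start 34, 6 and 32. Near a lower region in Vav KO against Tie2 WT these settings gave 3 and 6. Shares of all protein-coding genes were computed only for the reported counts and for regions over the gene start. The other alternative counts have no such share beside them, and a wider reach can raise the count for any gene set. Within single clusters and for the medians, 12 of 50 values moved further, and the cause was not tested beyond the smaller set of regions. No paired analysis was possible because the lists hold no values per sample, and leaving out a replicate could not be run for the same reason. Depth is unknown, so a Hox gene without a region cannot be told from one below the authors' threshold.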
